A study of Mus musculus with 27 samples.

Results

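Embryonic hearts that had lost 1 copy of Brg1 were set against wild-type hearts. The arrays were taken by their titles, 6 titled Brg1+/- and 6 titled wild type, which together make 12 of the 27 arrays of the series. Both groups were mouse hearts, taken from embryos at stage E11.5, of a C57Bl/6/BLKSW mixed background, and neither group carried another labelled allele. Brg1+/- hearts were heterozygous for a deletion of Brg1, and the stretch of the gene that this deletion removes is not stated in the labels. The series as a whole asked how the dosage of a chromatin remodelling complex bears on cardiac transcription factors, and its other arrays were from hearts heterozygous for Brg1 together with Tbx5 (n = 3) or with Nkx2-5 (n = 3), or for Tbx5 (n = 5) or Nkx2-5 (n = 4) alone. Those arrays served here for the shared estimate of spread and to give the effect of Brg1 loss in hearts that also lacked a copy of a transcription factor.

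Brg1, the product of Smarca4, is the ATPase that drives the BAF complex, a large assembly that slides and evicts nucleosomes and so opens or closes regulatory DNA to other factors. In the developing heart BAF is known to work with Tbx5, Nkx2-5 and Gata4, and its cardiac subunit Smarcd3 (Baf60c) helps recruit it to heart genes. Heart development in the mouse is known to be sensitive to the dose of several of these proteins, including Brg1.

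Total RNA was measured on 1 array per sample, and the values are log2 signals, on which a difference of 1 is a doubling. The medians of the 12 arrays lay between 6.20 and 6.32, and pairs of the 12 correlated at 0.978 to 0.994 over genes. Heart muscle markers were among the strongest signals on every array, with cardiac actin Actc1 at 13.99 to 14.28 in Brg1+/- hearts and 14.03 to 14.22 in wild-type hearts. Markers of skeletal myoblasts were low, with Myog at 5.55 to 6.14 in Brg1+/- hearts and 5.45 to 6.09 in wild-type hearts. Liver or neural signal stood out on 3 arrays. The mean of a liver list was 6.50 on Brg1+/- replicate 6 against 5.32 to 5.71 on the other Brg1+/- arrays, and 7.28 on wild type replicate 3 against 5.43 to 5.88 on the other wild-type arrays. The mean of a neural list was 6.57 on Brg1+/- replicate 3, against 5.62 to 5.86 on the other Brg1+/- arrays and 5.74 to 5.96 on wild-type arrays. By 3 Y-linked genes, 3 Brg1+/- arrays were male-like and 3 female-like, against 1 male-like and 5 female-like wild-type arrays. The labels do not say whether each array came from a separate embryo, so the p-values measure only the spread between these samples, which may in part be technical. Precision is set by having 6 arrays in each group.

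Smarca4 itself, on chromosome 9, gave the smallest p of all genes. Its signal in Brg1+/- hearts was 9.16 at the lowest, 9.36 at the median and 9.45 at the highest, against 9.95, 10.07 and 10.16 in wild-type hearts. Every Brg1+/- array was below every wild-type array, and the gap between the groups was wider than the range within either of them. The means were 9.32 ± 0.13 in Brg1+/- hearts and 10.07 ± 0.07 in wild-type hearts (SD, n = 6 each), so the signal fell by 0.745 in log2 units (SE 0.095), or 1.68-fold (limma adjusted p = 3.11e-04). In whole-heart RNA, fewer cells of a type and less RNA per cell cannot be told apart, here and in every result that follows.

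Igfbp2 was the only other gene past an adjusted p of 0.05. It encodes a secreted protein that binds insulin-like growth factors and limits their access to receptors. Its signal in Brg1+/- hearts was 7.58 at the lowest, 7.81 at the median and 8.13 at the highest, against 8.15, 8.56 and 8.78 in wild-type hearts. The groups did not overlap, but the highest Brg1+/- array and the lowest wild-type array nearly touched. The means were 7.86 ± 0.20 in Brg1+/- hearts and 8.51 ± 0.24 in wild-type hearts (SD, n = 6 each), and Igfbp2 fell by 0.65 in log2 units (SE 0.11; limma adjusted p = 0.0362). That call was close to the threshold: it passed in 11 of 26 alternative settings, and was lost when any 1 of Brg1+/- replicates 2, 3, 5 and 6 or of wild type replicates 1, 2, 4 and 5 was left out, with adjusted p up to 0.203 among these. In all, 2 of 19935 genes were called (0.01%), both lower in Brg1+/- hearts. With the medians of the arrays made equal, 4 genes were called, 2 lower and 2 higher.

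**Figure D1:**
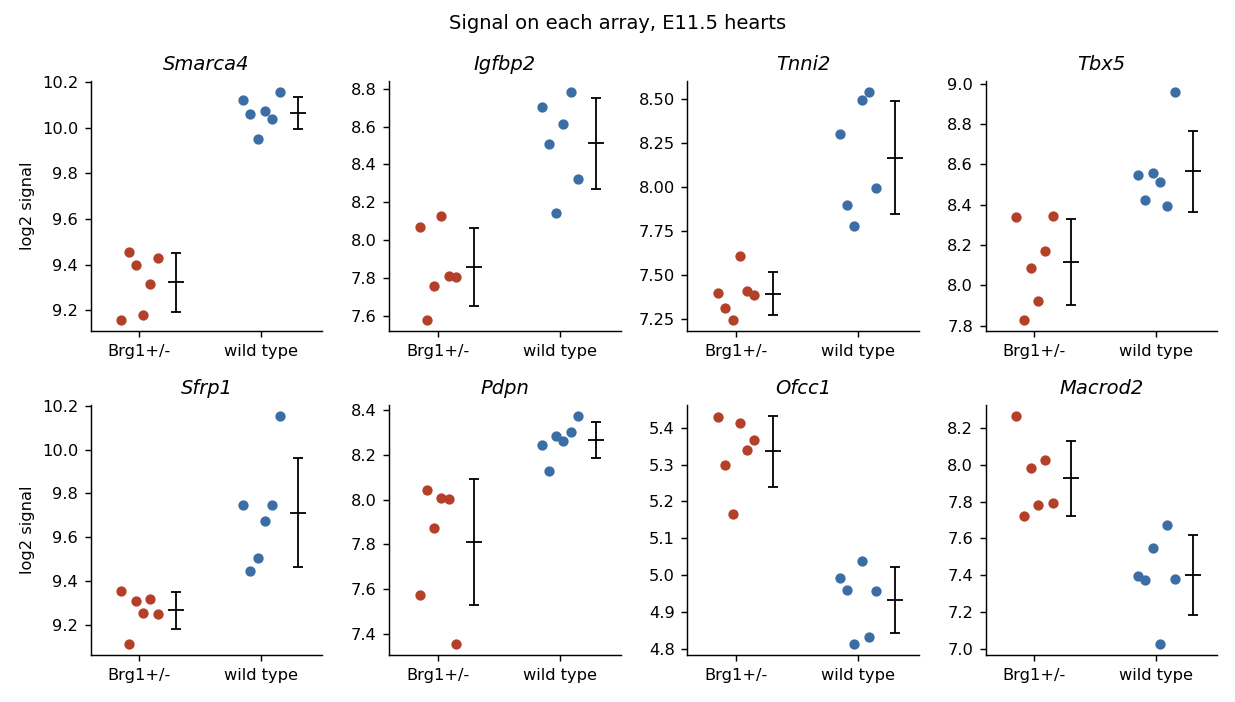
Log2 signal on each array (vertical axis) for 8 genes, with Brg1+/- hearts at the left and wild-type hearts at the right of each panel. Points are arrays, and the line and bar beside them are the mean and SD of 6 arrays. Smarca4 and Igfbp2 passed the test, and the groups do not overlap in any of the 8 panels.

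The start regions of both called genes are shown because they are the DNA beside which transcription of these genes starts, together with that of Hemgn, the red cell gene with the largest positive difference in the table. They are RefSeq promoter windows of build GRCm38.p6, from 250 bases before to 50 bases after the listed start, written 5′ to 3′ on the gene's strand. Capitals in Smarca4 (chr9:21615919-21616218, plus strand) and Igfbp2 (chr1:72824230-72824529, plus strand, the first of 2 listed starts) mark the GC box letters GGGCGG on either strand. Capitals in Hemgn (chr4:46404134-46404433, minus strand) mark AGATAA or TGATAA on either strand, the letters that GATA factors are known to bind. No matches overlap.
Smarca4: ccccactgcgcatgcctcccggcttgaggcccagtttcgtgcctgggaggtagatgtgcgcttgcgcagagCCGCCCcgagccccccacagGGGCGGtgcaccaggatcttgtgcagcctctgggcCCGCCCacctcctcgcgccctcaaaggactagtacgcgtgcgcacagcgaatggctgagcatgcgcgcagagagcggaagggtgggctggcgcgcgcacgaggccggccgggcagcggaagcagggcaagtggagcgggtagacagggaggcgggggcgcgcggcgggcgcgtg
Igfbp2: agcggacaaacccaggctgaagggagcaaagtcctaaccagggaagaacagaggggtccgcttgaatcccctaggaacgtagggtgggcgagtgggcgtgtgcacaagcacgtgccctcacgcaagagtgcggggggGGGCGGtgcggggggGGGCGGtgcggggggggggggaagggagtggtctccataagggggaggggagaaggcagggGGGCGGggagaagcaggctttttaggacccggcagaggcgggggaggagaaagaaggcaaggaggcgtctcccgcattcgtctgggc
Hemgn: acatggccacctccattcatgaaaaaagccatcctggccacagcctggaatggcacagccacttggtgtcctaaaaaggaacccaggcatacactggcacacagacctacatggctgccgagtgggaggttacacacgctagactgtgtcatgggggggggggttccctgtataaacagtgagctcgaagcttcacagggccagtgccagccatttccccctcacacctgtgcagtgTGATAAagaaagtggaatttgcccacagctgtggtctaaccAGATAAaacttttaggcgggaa
Smarca4 and Igfbp2 each held 3 matches to GGGCGG, which 35.9% of 27025 promoter windows also held at least once. Hemgn held 2 matches to the GATA letters, which 19% of all windows held, and which 13 of the 20 red cell genes with a listed window held (65.0%). A match is a description of the letters, and no array measured binding there.

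Genes beside Smarca4 on chromosome 9 were examined because a deletion can touch its neighbours. Among the 25 measured genes on each side, 0 were called, and 7 of 50 had an unadjusted p under 0.05, which is 14% against 9.71% of all genes. The adjacent genes Timm29 and Spc24 stood at -0.07 and 0.10 (limma adjusted p = 0.805 and 0.741). Around Igfbp2 on chromosome 1, 3 of 50 genes had an unadjusted p under 0.05 (6.0%). One of these was its immediate neighbour Igfbp5, another Igf binding protein, at -0.44 (limma adjusted p = 0.407).

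The rest of the Igf pathway leaned the same way without a call. Of the 19 measured members other than Igfbp2, 16 stood below 0, 4 had an unadjusted p under 0.05 on the lower side and 1 on the higher side, and the median difference was -0.11. Over all 19935 genes the median was -0.02, with 11226 genes below 0 and 8709 above it. On the lower side of an unadjusted p of 0.05 were 1174 genes (5.89%), and on the higher side 761 (3.82%). With array medians made equal, the median over all genes was 0.02. Igf2, the abundant growth factor of the embryo, was 12.47 to 12.84 in Brg1+/- hearts and 12.73 to 12.93 in wild-type hearts, a difference of -0.18. The adaptor Irs1, which carries the receptor's signal, stood at -0.33, while its relative Irs2 stood at 0.46. Igfbp3 stood at -0.24 and Grb10, an imprinted inhibitor of Igf signalling, at -0.18. The smallest limma adjusted p among the 19 was 0.407. With the mean of the red cell genes of each array added to the fit, as described with those genes, Irs1 stood at -0.18 and Irs2 at 0.08, and the 20 members with Igfbp2 had a median of -0.08, with 2 on the lower and 0 on the higher side.

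The other BAF subunits were near the level of wild type. Of 30 measured subunits besides Smarca4, 23 stood below 0, with a median of -0.07 and a range from -0.34 to 0.40. On the lower and the higher side of an unadjusted p of 0.05 there were 2 and 1, against 5.89% and 3.82% of all genes. Of these subunits 0 were called (smallest limma adjusted p = 0.379). Smarca2, which encodes Brm, the alternative ATPase of the complex, was 7.05 to 7.58 in Brg1+/- hearts and 7.51 to 7.88 in wild-type hearts, a difference of -0.33 (SE 0.12; limma adjusted p = 0.43). The core subunit Smarcb1 stood at -0.14 and the cardiac subunit Smarcd3 at -0.16. Bcl11a, a zinc finger subunit, stood at -0.34 and Bicral, a subunit of the non-canonical form of the complex, at 0.40. Among 23 remodellers of other families, 2 had an unadjusted p under 0.05, both on the lower side, and the median was -0.01. One of them was Chd4, the ATPase of the NuRD complex, at -0.18.

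Across the table, groups that did not overlap were uncommon. Every Brg1+/- array was below every wild-type array for 88 genes (0.441%) and above for 33 genes (0.166%), which together make 0.607% of the genes. The 88 lower genes had a median mean signal of 7.88, and 6 of them lay under a signal of 6. The 33 higher genes had a median mean signal of 5.30, and 26 of them lay under a signal of 6, where 8316 of all 19935 genes lay. The split of unadjusted calls moved with the scaling: 60.7% of them were on the lower side as deposited, 50.2% after a further quantile normalization and 31.9% with array medians made equal.

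After the called pair, the smallest adjusted p was 0.111, shared by 1 predicted gene and 1 olfactory receptor, both above 0. Tnni2, the fast skeletal isoform of the inhibitory troponin subunit, followed. It was 7.25 at the lowest, 7.39 at the median and 7.61 at the highest in Brg1+/- hearts, against 7.78, 8.15 and 8.54 in wild-type hearts. The groups did not overlap, wild type was the more variable, and the difference was -0.77 (SE 0.16; limma adjusted p = 0.254). When 2 arrays of other genotypes, whose Smarca4 signal went against their label, were left out of the shared estimate of spread, Tnni2 had an adjusted p of 0.0409.

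Several further genes with limma adjusted p = 0.254 also separated the groups. Pdpn, a membrane glycoprotein of the epicardium and lymphatic vessels, was 7.36 to 8.04 in Brg1+/- hearts and 8.13 to 8.37 in wild-type hearts, a difference of -0.46. Sfrp1, a secreted antagonist of Wnt signalling, was 9.11 to 9.36 in Brg1+/- hearts and 9.44 to 10.15 in wild-type hearts, a difference of -0.45. On the other side, Macrod2, an ADP-ribose hydrolase, was 7.72 to 8.26 in Brg1+/- hearts and 7.03 to 7.67 in wild-type hearts, a difference of 0.53. The groups did not overlap in any of these genes, nor in Ofcc1 at 0.40 and the hair keratin Krt35 at 0.35, which were both dim. The remaining genes at that adjusted p included the lipid carrier Stard10 at -0.47, the glycine cleavage enzyme Amt at -0.54, the immune GTPase Gimap9 at -0.57, the microRNA gene Mir383 at 0.39 and the transcription factor Dmrt3 at 0.41.

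**Figure D2:**
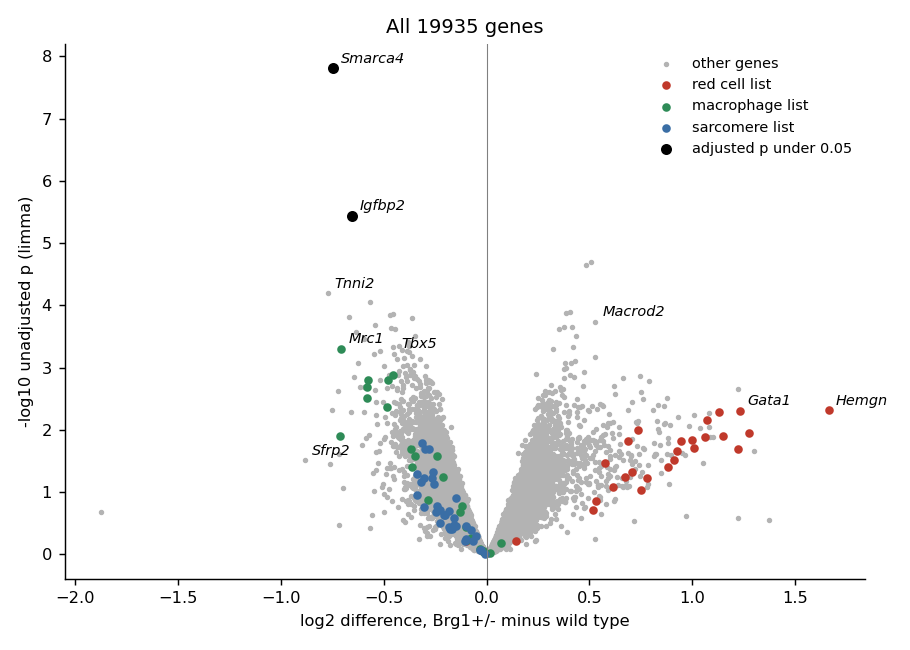
Each point is a gene, with the log2 difference of Brg1+/- minus wild type on the horizontal axis and -log10 of the unadjusted limma p on the vertical axis. Smarca4 and Igfbp2 (black) are past an adjusted p of 0.05. Red cell genes (red) make up much of the far right without passing the test, macrophage genes (green) lie on the left, and sarcomere genes (blue) lie to the left near the bottom.

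Among genes with an unadjusted p under 0.05, many of the largest positive differences belonged to genes of red blood cells. Of 26 measured members of the red cell list, 25 stood above 0, 18 had an unadjusted p under 0.05 on the higher side and 0 on the lower side, and the median was 0.90, but 0 were called. Over all genes, 8709 of 19935 stood above 0, and 3.82% had an unadjusted p under 0.05 on the higher side. Hemgn, a nuclear protein of erythroid precursors, was 8.85 at the lowest, 9.95 at the median and 11.00 at the highest in Brg1+/- hearts, against 6.70, 8.32 and 9.91 in wild-type hearts. The ranges overlapped, with wild type the more variable, and the difference of 1.66 had an SE of 0.54 (limma adjusted p = 0.409). Gata1, the transcription factor of the red cell lineage, stood at 1.23, the erythropoietin receptor Epor at 1.13, the Rhesus proteins Rhag and Rhd at 1.22 and 1.15, and the red cell pyruvate kinase Pklr at 1.28. Other genes among the largest positive differences were Mir144, a microRNA of red cells, at 1.30, the acid phosphatase Acp5 at 1.22 and the claudin Cldn13 at 1.10. The mean of the red cell list was 8.85 to 10.58 on Brg1+/- arrays and 8.47 to 9.89 on wild-type arrays, so single arrays of either genotype could be high or low.

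Globins and platelet genes stood on the same side. All 6 measured globins were above 0 with a median of 0.51, and 4 had an unadjusted p under 0.05. On the higher side of that threshold were 3.82% of all genes. The embryonic beta-like globin Hbb-y was very bright, at 14.33 to 14.39 in Brg1+/- hearts and 14.09 to 14.26 in wild-type hearts, a difference of 0.17 with no overlap (limma adjusted p = 0.44). Hbb-bh1 stood at 0.74, Hbb-bh2 at 0.75 and the embryonic alpha-like globin Hba-x at 0.33, and arrays cannot fully separate the signal of such close copies. All 13 measured megakaryocyte and platelet genes were above 0 with a median of 0.37, among them the platelet chemokine Pf4 at 0.74 and Rgs18, a regulator of G protein signalling in platelets, at 0.72. Of 35 cell cycle genes 30 were above 0, with a median of 0.15. The proliferation marker Mki67 stood at 0.84, Ccna2 at 0.32 and Ccnd3 at 0.35.

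Because the red cell signal differed between arrays of the same genotype, each list was also fitted with the red cell mean of each array as a covariate. With it the median of the red cell list was 0.03, a value near 0 by construction, since the covariate is the mean of that same list. The median was 0.06 for the globins, 0.01 for the platelet list and 0.03 for the cell cycle list. The covariate also differed between the genotypes, with a median of 10.04 on Brg1+/- arrays and 8.95 on wild-type arrays. Its slope came from all 27 arrays. The fit can therefore remove part of a genotype difference together with red cell signal, and these cannot be told apart. Over all genes, 418 (2.1%) were then on the lower side and 426 (2.14%) on the higher side of an unadjusted p of 0.05, or 4.23% in all. Smarca4 stood at -0.84 in that fit and remained called, and Igfbp2 stood at -0.63 (limma adjusted p = 0.179). The part of the red cell signal in each heart list was not tested beyond this fit, and its value is given beside the lists that follow. Beside the counts below 0 in those lists, 11226 of all 19935 genes stood below 0. For the counts by unadjusted p, the shares over all genes were 5.89% on the lower and 3.82% on the higher side. With the covariate they were 2.1% and 2.14%.

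**Figure D3:**
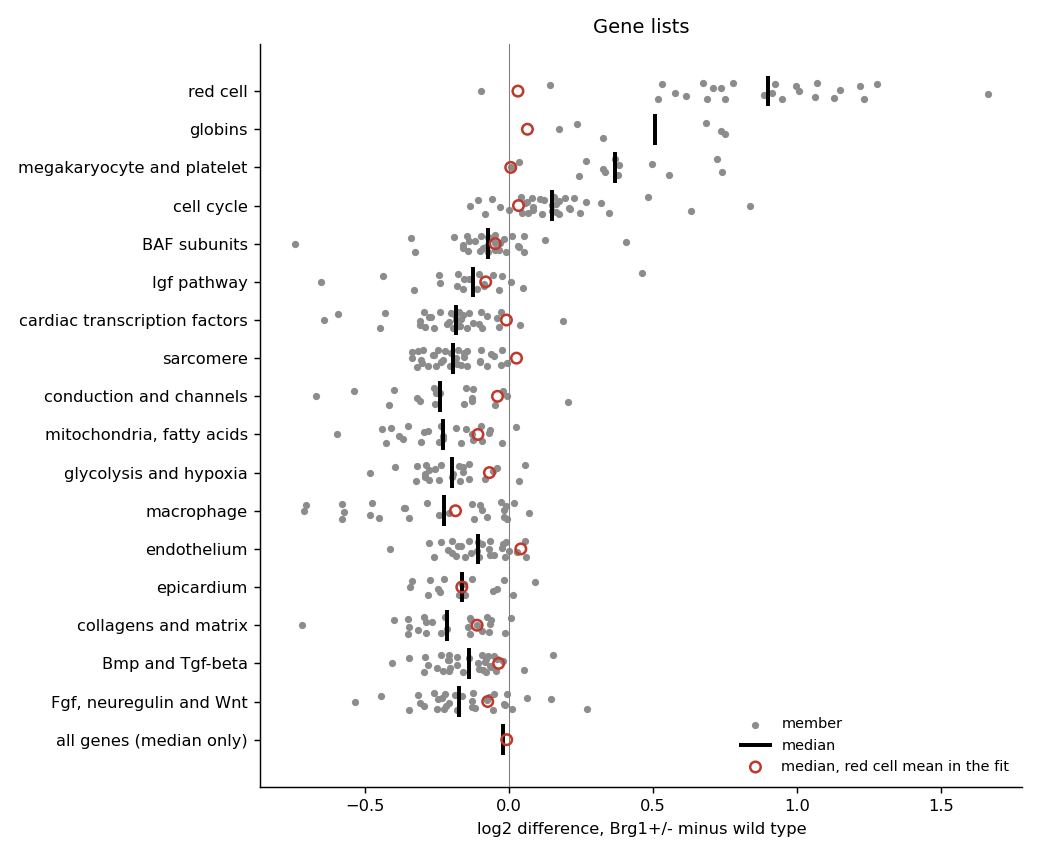
Log2 difference of Brg1+/- minus wild type (horizontal axis) for the members of 17 gene lists, 1 list per row. Grey points are genes, black bars are list medians, and red circles are medians with the red cell mean of each array in the fit. Red cell genes stand far to the right and most heart lists slightly to the left, and most of the circles lie near 0, with the macrophage and epicardial circles close to their bars.

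Cardiac transcription factors leaned below wild type. Of 35 measured, 33 stood below 0, with 10 on the lower and 1 on the higher side of an unadjusted p of 0.05 and a median of -0.19. With the red cell mean in the fit the median was -0.01, and 5 were on the lower and 1 on the higher side. Tbx5, which patterns the atria and the conduction system, was 7.83 at the lowest, 8.13 at the median and 8.35 at the highest in Brg1+/- hearts, against 8.39, 8.53 and 8.96 in wild-type hearts. All Brg1+/- arrays were below all wild-type arrays by a narrow margin, and the difference was -0.45 (SE 0.12; limma adjusted p = 0.328). Nkx2-5, the other factor deleted in the series, overlapped widely, at 8.99 to 9.64 in Brg1+/- hearts and 9.17 to 9.96 in wild-type hearts, a difference of -0.20 (limma adjusted p = 0.671).

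Other factors with small unadjusted p included several known from the inflow region of the heart. Isl1 and Tbx18, also known from that region, were not among the listed factors with an unadjusted p under 0.05. Nr2f1 and Nr2f2, nuclear receptors that specify atrial identity, stood at -0.60 and -0.43 (limma adjusted p = 0.303 and 0.379). Shox2, a regulator of the sinus node, was 5.95 to 6.87 in Brg1+/- hearts and 6.68 to 7.68 in wild-type hearts, a difference of -0.64 (limma adjusted p = 0.379). Tbx3, which keeps the conduction system from becoming working muscle, stood at -0.31, Tbx2 at -0.26 and Meis1 at -0.31. Gata6 stood at -0.29, its cofactor Zfpm2 at -0.24 and Prox1 at -0.30. The exception was the Iroquois factor Irx6, at 0.19. Wild type replicate 6 was the highest of the 12 arrays for Nr2f1, at 7.97, and for Nr2f2, Shox2, Tbx3, Tbx2 and Gata6.

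Conduction and ion channel genes held 5 of 19 members on the lower side of an unadjusted p of 0.05 and 0 on the higher side. Their median was -0.24. The red cell mean in the fit gave -0.04, with 2 on the lower side. Vsnl1, a calcium sensor known from the sinus venosus, was 7.84 at the lowest, 8.12 at the median and 8.85 at the highest in Brg1+/- hearts, against 8.48, 8.93 and 9.30 in wild-type hearts. Brg1+/- replicate 1 lay among the wild-type arrays and the other Brg1+/- arrays were lower, and the difference was -0.67 (SE 0.15; limma adjusted p = 0.254). Hcn4, the pacemaker channel, was 6.98 to 7.38 in Brg1+/- hearts and 7.24 to 8.66 in wild-type hearts. The calcium channel gene Cacna1d was 6.40 to 6.95 in Brg1+/- hearts and 6.65 to 8.67 in wild-type hearts. Wild type replicate 6 was the highest array for Hcn4 and Cacna1d, and also for Vsnl1, Kcnj5, Tbx5, Shox2 and Igfbp5. Without it the difference of Hcn4 was -0.21 rather than -0.42, that of Cacna1d -0.24 rather than -0.54, that of Shox2 -0.50 and that of Tbx5 -0.37. The inward rectifier channels Kcnj2 and Kcnj5 stood at -0.40 and -0.32.

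Muscle structure and metabolism showed small negative differences and no call. All 34 measured sarcomere genes stood below 0, with a median of -0.19 and a lowest value of -0.34, and 4 had an unadjusted p under 0.05. With the red cell mean in the fit their median was 0.03, and 1 was on the lower side. Tnni3 and Tnni1, the adult cardiac and the fetal troponin I, stood at -0.30 and -0.28, the muscle LIM protein Csrp3 at -0.26 and the M-band gene Myom2 at -0.32. Brg1+/- replicate 2 had both the lowest sarcomere mean of the 12 arrays, 10.04, and the highest red cell mean, 10.58. All 14 calcium handling genes were below 0 with a median of -0.20, and 0.02 with the red cell mean in the fit, and chamber genes had a median of -0.15 and 0.01.

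Of 25 mitochondrial and fatty acid genes, 24 stood below 0 and 8 had an unadjusted p under 0.05 on the lower side. Their median was -0.23. It was -0.11 with the red cell mean in the fit, with 2 on the lower side. The muscle creatine kinase Ckm stood at -0.60 (SE 0.20; limma adjusted p = 0.409), the pyruvate dehydrogenase kinase Pdk4 at -0.44, the dehydrogenase Acadl at -0.31 and the muscle cytochrome oxidase subunit Cox7a1 at -0.30. Among 25 glycolysis and hypoxia genes the median was -0.20, with 5 on the lower side, and -0.07 with the red cell mean in the fit, with 0 on either side. Vegfa, the main growth factor of vessels, was 8.08 to 8.32 in Brg1+/- hearts and 8.36 to 8.60 in wild-type hearts, a difference of -0.26 with no overlap (limma adjusted p = 0.473). Ldhb stood at -0.48, Aldoa at -0.32 and Pgam2 at -0.29.

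Genes that Brg1 is known to control in the mouse heart from earlier work did not separate the groups. The list held 7 such genes, among them both myosin heavy chains, of which 5 stood below 0 and 0 had an unadjusted p under 0.05, and the median was -0.13. Myh6, the alpha myosin heavy chain, was 10.97 at the lowest, 11.79 at the median and 12.08 at the highest in Brg1+/- hearts, against 11.89, 12.02 and 12.11 in wild-type hearts. The lowest value was Brg1+/- replicate 2 and the other arrays lay close together, and the difference was -0.30 (SE 0.15; limma adjusted p = 0.532). Myh7, the beta myosin heavy chain, stood at -0.18 (SE 0.20), the cell cycle inhibitor Cdkn1c at -0.09 (SE 0.10), the matrix protease Adamts1 at -0.24 (SE 0.17) and the connexin Gja5 at -0.13 (SE 0.16), with limma adjusted p from 0.661 to 0.801. These 4 stood at 0.04 to 0.07 with the red cell mean in the fit.

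A few signalling genes of the heart did not overlap between the groups, by narrow margins. Those in the Bmp and Tgf-beta list numbered 3 of 33, all lower, where 0.441% of all genes were without overlap on that side. In the Bmp and Tgf-beta list, 31 of 33 members stood below 0, with 6 on the lower side of an unadjusted p of 0.05, and the median was -0.14. The red cell mean in the fit gave -0.04, with 2 on the lower side. Bmp4, a ligand that acts on the outflow tract and cushions, was 7.98 to 8.33 in Brg1+/- hearts and 8.36 to 8.81 in wild-type hearts, a difference of -0.41 (limma adjusted p = 0.399). Its intracellular mediators Smad1 and Smad4 stood at -0.35 and -0.24, and neither overlapped between the groups. Tgfb2 stood at -0.30.

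In the Fgf, neuregulin and Wnt list, 9 of 32 members were on the lower and 1 on the higher side of an unadjusted p of 0.05. The median was -0.17. It was -0.08 with the red cell mean in the fit, with 2 on the lower and 2 on the higher side. Wnt2 stood at -0.54, the Wnt receptor Fzd2 at -0.32 with no overlap and the neuregulin receptor subunit Erbb2 at -0.35. Sfrp2, a relative of Sfrp1, had the lowest difference among genes with an unadjusted p under 0.05, at -0.88, with wide ranges of 7.45 to 9.14 in Brg1+/- hearts and 7.88 to 10.26 in wild-type hearts (SE 0.39; limma adjusted p = 0.473). None of 17 Notch pathway genes had an unadjusted p under 0.05, and their median was -0.10, or -0.01 with the red cell mean in the fit. Outflow and second heart field genes had a median of -0.19 over 15 members, or -0.09 in that fit, with the semaphorin receptor Plxna2 at -0.33.

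Genes of the other cell types of the heart stood slightly below wild type. The median was -0.11 over 29 endothelial genes, -0.16 over 17 epicardial genes, -0.14 over 26 cushion mesenchyme genes, -0.19 over 14 smooth muscle genes and -0.22 over 25 collagen and matrix genes. With the red cell mean in the fit the same medians were 0.04, -0.17, -0.02, -0.06 and -0.11. Epicardial genes with an unadjusted p under 0.05 numbered 4, namely Bnc1 at -0.34, Msln at -0.34, Sema3d at -0.27 and Tcf21 at -0.23. Prrx1, a transcription factor of mesenchyme, was 6.25 to 6.68 in Brg1+/- hearts and 6.95 to 7.33 in wild-type hearts, a difference of -0.54 with no overlap (limma adjusted p = 0.401). The apelin receptor gene Aplnr stood at -0.42, the venous receptor gene Ephb4 at -0.28, Angpt2 at -0.26, the smooth muscle genes Cnn1 and Actg2 at -0.40 and -0.33 and the matrix gene Fbln2 at -0.34. Further matrix and adhesion genes were among the lowest with an unadjusted p under 0.05, with Adamts18 at -0.76, Col12a1 at -0.72 and Frem2 at -0.72.

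Macrophage genes stood below wild type with and without the red cell mean in the fit. Of 26 measured members 24 stood below 0, and 12 had an unadjusted p under 0.05 on the lower side and 0 on the higher side, where 5.89% of all genes were on the lower side. The median was -0.23, and -0.19 with the red cell mean in the fit, with 12 members again on the lower side. No member was called. Mrc1, the mannose receptor, was 5.78 at the lowest, 6.14 at the median and 6.53 at the highest in Brg1+/- hearts, against 6.46, 6.77 and 7.24 in wild-type hearts. Only the highest Brg1+/- array reached the wild-type range, and the difference was -0.71 (SE 0.18; limma adjusted p = 0.318).

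Adgre1, the receptor whose antigen defines mouse macrophages, was dim at 5.09 to 5.53 in Brg1+/- hearts and 5.58 to 5.97 in wild-type hearts, a difference of -0.45 with no overlap (limma adjusted p = 0.379). Csf1r, the receptor on which tissue macrophages depend, stood at -0.48, the fractalkine receptor Cx3cr1 at -0.48, the complement gene C1qb at -0.57 and F13a1 at -0.71. Outside the list, Ly86, a partner of an immune receptor, was chosen after its values were seen and stood at -0.62 with no overlap. The mean of the macrophage list was 5.93 to 6.20 on Brg1+/- arrays and 6.09 to 6.45 on wild-type arrays, so all members together were low in both groups. The difference in macrophage and red cell genes ran in opposite directions. Lymphoid and other myeloid genes had a median of -0.01 over 14 members, and the 8 Gimap genes a median of -0.13. In the fit with the red cell mean these medians were -0.03 and -0.05.

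**Figure D4:**
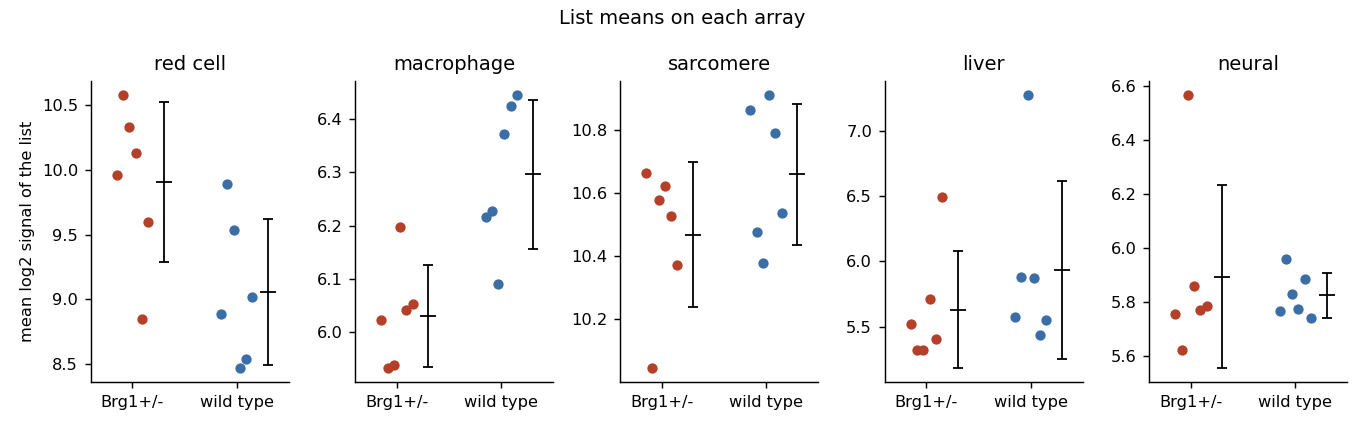
Mean log2 signal of the members of 5 lists on each array (vertical axes), with Brg1+/- at the left and wild type at the right. Points are arrays, and the line and bar are the mean and SD of 6 arrays. Red cell means lie higher and macrophage means lower on most Brg1+/- arrays, and the liver and neural panels show the 3 arrays with high liver or neural signal.

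Liver genes had a median of -0.28 over 18 members, with 1 on the lower side of an unadjusted p of 0.05. With the red cell mean in the fit the median was -0.41, with 5 on the lower side, and the transferrin gene Trf stood at -0.57, or -0.76 in that fit. These values include wild type replicate 3 and Brg1+/- replicate 6, whose liver means of 7.28 and 6.50 stood apart from their groups. Medians closer to 0 were seen in the remaining lists. Skeletal and pharyngeal muscle genes had a median of -0.03 over 29 members (0.00 with the red cell mean in the fit), with Tnnt3 at -0.40 and Actn3 at -0.31 beside Tnni2. Neural genes had a median of 0.00 over 19 members (-0.01 in that fit), and the tubulin gene Tubb3 stood at 0.53, or 0.32 without Brg1+/- replicate 3, the array with the neural signal. Immediate early genes, which respond to handling, had a median of 0.00 over 22 members (0.05 in that fit). Dusp1 stood at 0.45 and Btg2 at 0.41, against 0.13 and 0.10 with the red cell mean in the fit. Foregut genes had a median of 0.01 over 16 members (-0.04 in that fit). The 8 sex-linked genes ran from -1.87, the lowest difference of all 19935 genes, to 1.38, with a median of -0.04 (-0.10 in that fit), beside 3 male-like Brg1+/- arrays and 1 male-like wild-type array. Such small medians have no settled sign: with array medians made equal, those of the skeletal, neural, sex-linked, lymphoid and non-BAF remodeller lists were 0.01 to 0.04.

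The same loss of a Brg1 copy was also present in hearts that lacked a copy of Tbx5 or of Nkx2-5, on arrays that share none with those above. Smarca4 was 9.51, 9.64 and 10.01 in Tbx5+/- Brg1 +/- hearts, against 9.92 to 10.23 in Tbx5+/- hearts, a difference of -0.36 (SE 0.12; limma adjusted p = 1). It was 9.26, 9.47 and 9.60 in Nkx2-5+/- Brg1+/- hearts, against 9.57 to 10.08 in Nkx2-5+/- hearts, a difference of -0.45 (SE 0.13; limma adjusted p = 0.0816). In both pairs 1 array stood with the other genotype: Tbx5+/- Brg1 +/- replicate 3 at 10.01 was at the level of hearts with both copies, and the library labelled Nkx2-5+/- replicate 3 at 9.57 was at the level of hearts with 1 copy. Genes called by limma numbered 0 of 19935 for Brg1 loss in Tbx5+/- hearts (0.0%), where 348 genes were on the higher and 146 on the lower side of an unadjusted p of 0.05. In Nkx2-5+/- hearts 1498 genes were on the higher and 1565 on the lower side. Of all genes 8 were called there (0.0401%), and 2363 without those 2 arrays. The median difference for Brg1 loss in Tbx5+/- and then in Nkx2-5+/- hearts was 0.17 and -1.425 for red cell genes. It was -0.05 and 0.42 for sarcomere genes, -0.08 and 0.295 for cardiac transcription factors and -0.06 and 0.06 for macrophage genes. Liver genes stood at -0.28 and 0.18. In the Nkx2-5 pair the sign in each of these lists was opposite to that given above.

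Igfbp2 gave a different picture in the Nkx2-5 pair. It was 8.03 to 8.62 in Tbx5+/- Brg1 +/- hearts and 8.51 to 9.0 in Tbx5+/- hearts, a difference of -0.46 (limma adjusted p = 1). In Nkx2-5+/- Brg1+/- hearts it was 7.67 to 7.83, against 7.66 to 7.85 in Nkx2-5+/- hearts, a difference of -0.01. The change in the Brg1 effect with Nkx2-5 loss was 0.65 (SE 0.19; limma adjusted p = 0.0429). This change includes the difference between Brg1+/- and wild-type hearts by which Igfbp2 was called. Its p-value is therefore not independent of that call.  It is given as a description. The change passed in 15 of 25 alternatives and not with the red cell mean in the fit (limma adjusted p = 1), after a further quantile normalization (0.0696) or with array medians equal (0.0763). It comes from a comparison in which 987 genes (4.95%) were called and which rests in part on the library labelled Nkx2-5+/- replicate 3. The same test for Tbx5 loss gave 0.19 (limma adjusted p = 1). For Smarca4 the change in the Brg1 effect was 0.39 with Tbx5 loss and 0.29 with Nkx2-5 loss (limma adjusted p = 1 and 0.31).

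**Figure D5:**
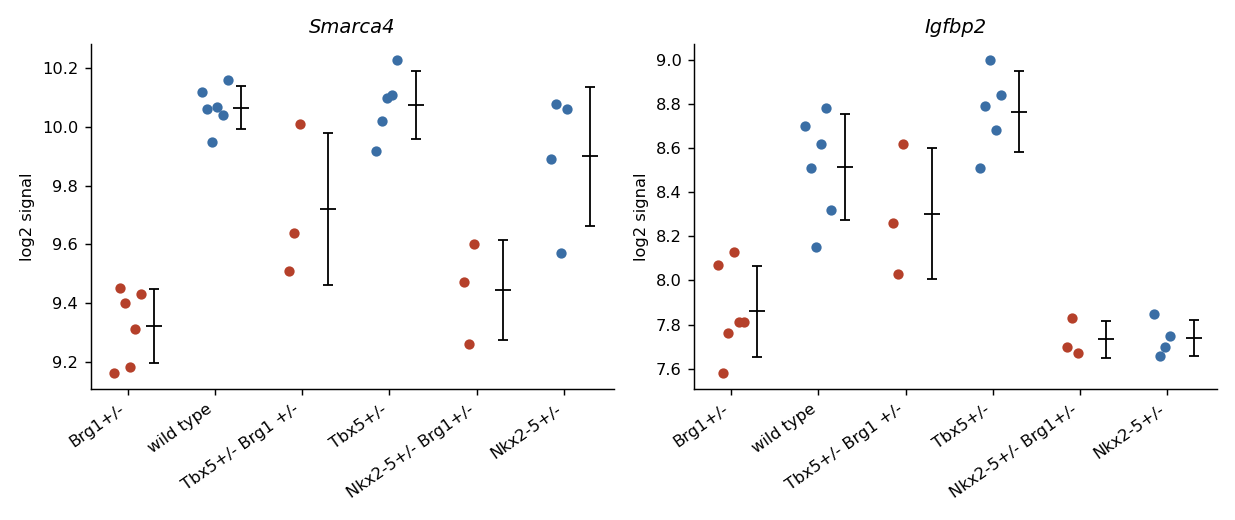
Log2 signal of Smarca4 and Igfbp2 on each array (vertical axes) in 6 genotypes, each Brg1-deficient group (red) left of its partner with both copies (blue). Points are arrays, and the line and bar are the mean and SD. Smarca4 is lower in each red group apart from single arrays, and Igfbp2 is low in both Nkx2-5+/- groups.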

How the data were processed

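RNA of embryonic hearts was measured on 27 Affymetrix arrays, 1 array per sample. Per the submitters' processing notes, RMA as run in Affymetrix Power Tools gave the deposited log2 signals of 28815 probe sets. Versions and the genome build of the probe design are not given in the sources used here. The values were used as deposited.

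Probe sets were named through the platform annotation: 5430 were unlisted, 1605 named several genes, and the 21780 that named a single gene were kept. Where a gene had several probe sets (998 genes), the brightest on average stood for it. This gave 19935 genes, 19853 of them in the RefSeq table of GRCm38.p6, used for gene order and promoter windows.

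Differences came from limma 3.58.1 (R 4.3.3), fitted as genotype means over all 27 arrays (21 residual and 6.71 prior degrees of freedom) and Benjamini-Hochberg adjustment over all genes. Tests were two-sided, with calls made below an adjusted p of 0.05. Pairs of arrays with the same replicate number correlated at -0.07 to 0.39 (3 of 6 over 0.1). Pairs with other numbers spanned -0.38 to 0.42, a range that holds the first, so no block was used.

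Genes named were drawn from the targeted genes, the called genes and the 12 with the smallest p on each side. They also came from the 10 with the largest differences on each side among those with an unadjusted p under 0.05. From each list up to 4 members with the smallest p could be taken, more for the BAF, Igf and globin lists and lists of up to 8 genes. Some genes under this rule are not named above, among them Homez, Pard6g, Ddc, Ctnnal1, Spaca9, Cdnf and Cxcl13. Tbx3, Gata6, Prox1, Zfpm2, Meis1, Irx6, Isl1, Tbx18, Kcnj5, Csf1r, Actn3 and Ly86 fall outside this rule and were named after their values were seen. Predicted genes and olfactory receptors were counted, not named. The 34 lists, the genes and the alternatives were chosen with earlier results of these data known, and the test of the change in the Brg1 effect was added later. The Y-linked mean used 3 of 4 listed genes. The fit was tested on simulated data. Figures were drawn with matplotlib 3.10.9.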

Additional observations from a re-analysis of the deposited data

Results flagged for a closer look

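Single arrays that stood apart from the other 5 of their group were sought in each named gene and list, by the gap to the nearest array as a share of the group's range. They were found in 23 of 316 groups examined (7.28%), where chance alone gives about 5%. Among wild-type arrays, replicate 6 stood apart for Tbx5 at 8.96, Arid1a at 9.18, Igfbp5 at 11.83, Shox2 at 7.68, Hcn4 at 8.66 and Cacna1d at 8.67. Wild type replicate 2 was high for Actg2 at 7.60 and Btg2 at 7.65 and low for Irs1 at 8.12, replicate 3 was high for Dmrt3 at 6.32, and replicate 1 was high for Smarcd3 at 9.23. Among Brg1+/- arrays, replicate 2 was low for Myh6 at 10.97, Stard10 at 8.48, Cox7a1 at 9.46, Pgam2 at 9.95 and Prrx1 at 6.25. Brg1+/- replicate 1 was low for Col12a1 at 5.74, and replicate 5 was high for Actn3 at 7.06.

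List means stood apart for neural genes at 6.57 on Brg1+/- replicate 3, and for liver genes at 6.50 on Brg1+/- replicate 6 and 7.28 on wild type replicate 3. A foregut mean of 5.58 and a sex-linked mean of 8.43 each stood apart on 1 wild-type array, the second being the only male-like array of its group.

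For the targeted and called genes, the Brg1 effect was compared between hearts with and without loss of a factor. The comparison includes the Brg1+/- and wild-type arrays by which Igfbp2 was called, so for Igfbp2 it is not independent of that call. With Nkx2-5 loss minus without, it differed by 0.65 for Igfbp2 (limma adjusted p = 0.0429) and by 0.88 for Tbx5 (limma adjusted p = 0.0189). With the red cell mean in the fit neither passed, at 0.59 for Igfbp2 and 0.56 for Tbx5 (limma adjusted p = 1 for both). The Igfbp2 difference passed in 15 of 25 alternatives. Tbx5 stood at 0.43 for Brg1 loss in Nkx2-5+/- hearts (limma adjusted p = 0.144).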

How the results depend on the processing

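Smarca4 remained called under all 26 alternatives, at -0.84 to -0.70 (limma adjusted p from 7.13e-06 to 0.00343). Among them, the fit without the 2 arrays against their label dropped arrays by their Smarca4 signal, so it is no independent check of Smarca4. The number of genes called was 4 with array medians equal and without the 2 arrays against their label, and 1 after a further quantile normalization, with the 12 arrays alone, with the replicate block, with the red cell mean, the Y-linked mean or both as covariates, and without the 3 arrays with liver or neural signal (added after seeing the data). It was 1 to 3 with each array left out in turn. Igfbp2 missed the threshold at -0.61 after quantile normalization, -0.65 with the 12 arrays alone and with the replicate block (limma adjusted p = 0.106), -0.63 with the red cell or the Y-linked mean, -0.61 with both and -0.69 without the 3 arrays, and stood at -0.73 to -0.60 with arrays left out. The replicate numbers gave no clear pairing of the arrays (same-number correlations of -0.07 to 0.39, others -0.38 to 0.42), and 1 Brg1+/- array correlated best with its own number. Brg1 loss in Tbx5+/- hearts gave 2 genes with array weights. In Nkx2-5+/- hearts its count was 121 after quantile normalization, 140 without the genes of lowest mean, 88 with a trended prior, 412 with the replicate block, 2363 without the arrays against their label and 3680 with array weights, against 3 with array medians equal or the Y-linked mean, 1 with the red cell mean, and 0 with both covariates or with the arrays of the 2 groups alone. The change in the Igfbp2 effect with Nkx2-5 loss missed the threshold at 0.61 after quantile normalization, 0.56 with array medians equal, 0.59 with the red cell mean and 0.60 with both covariates. It was 0.59 to 0.72 with arrays left out, and missed it when 1 of Brg1+/- replicates 2, 3 and 6 or wild type replicates 1, 4 and 5 was dropped. Among named genes, signs turned in fits with the red cell mean, alone or with the Y-linked mean: Nkx2-5 at 0.011 and 0.012, Myh7 at 0.069 and 0.092, Cdkn1c at 0.054 and 0.062, Adamts1 at 0.039 and 0.015, Gja5 at 0.037 and 0.051, and with both means Pf4 at -0.012. The cause was not tested. Arrays give no counts, and dim genes such as Adgre1 lie near the low end of the scale.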
